A study of Apostichopus japonicus with 12 samples.

Results

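Intestines of the sea cucumber Apostichopus japonicus, an echinoderm that is farmed for food, were compared between animals kept at 30 °C and animals kept at 26 °C, both for 6 h. The comparison takes every library of these conditions, 6 of the 12 in the study, and covers all genes of the deposited expression table. The groups were 30 °C for 6 h (3 animals), 26 °C for 6 h (3 animals), 26 °C for 48 h (3 animals) and controls at the normal growth temperature of 18 °C (3 animals). The animals weighed around 100 g, per the labels, and RNA was taken from each one separately, so replicates are separate animals. The labels give a warming rate of 2 °C per h and count time from the target temperature, so from 18 °C the warming took 6 h for the 30 °C animals and 4 h for the 26 °C animals. The comparison asks what a hotter exposure changes at equal time, and the length of warming cannot be told apart from the temperature reached. The 48 h animals and the controls share the estimate of the spread, and the controls serve as background.

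Animal cells answer heat through the heat shock response, in which heat shock factor binds the promoters of chaperone genes when misfolded proteins build up. Small heat shock proteins hold unfolded proteins, HSP70 refolds them with DnaJ co-chaperones, BAG proteins release the substrate from HSP70, and HSP90 matures client proteins. The gut of a sea cucumber is a thin tube of absorptive epithelium, connective tissue, muscle and nerve, bathed in body fluid that carries immune cells called coelomocytes, and it is known to shrink when the animal becomes dormant in warm water.

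Levels are FPKM as the authors deposited them, that is, sequenced fragments per unit of gene length, corrected for the depth of the library. Reads on genes numbered 2661314 to 3956056 per library at 30 °C and 2095221 to 3627690 at 26 °C. With each library thinned to 1700000 reads, 12478 to 14704 genes were detected at 30 °C and 12676 to 16710 at 26 °C. The summed FPKM was 2078693 to 3014690 at 30 °C and 1002751 to 1390219 at 26 °C, because the deposited scaling equalises the typical gene and not the sum. When every library was rescaled to a common sum, the median log2 change of all genes moved from 0.00 to -0.50, and in the text changes of gene groups under that scaling are given relative to it. Across genes, log2 values correlated with r = 0.713 to 0.786 among the 30 °C libraries and 0.689 to 0.740 among the 26 °C libraries.

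At 30 °C, which is 4 °C above the other group, a small set of genes changed by large factors, and 4 of them were chaperones or co-chaperones of the cytosolic heat shock list. Of 18729 genes tested, 46 passed an adjusted p of 0.05 (limma), which is 0.246% of them, and all 46 had values in the groups that did not overlap. They were 37 genes higher at 30 °C (0.198%) and 9 lower (0.0481%). The log2 changes of the higher genes ran from 2.49 to 7.98 with a median of 5.03, and those of the lower genes from -6.58 to -2.90. At an unadjusted p under 0.05 there were 2190 genes (11.7%), 1255 higher (6.7%) and 935 lower (4.99%). Groups did not overlap in 1312 higher genes (7.01%) and 1101 lower genes (5.88%). A name was given to 24 of the 46, of which 18 were higher and 6 lower, and the file calls the other 22 hypothetical.

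The number of genes called depended on single libraries. Without 30 °C animal 1, 2 or 3 it was 4, 1 and 142, and without 26 °C animal 1, 2 or 3 at 6 h it was 5, 5 and 74. Without 48 h animal 1, 2 or 3 it was 20, 13 and 10, and without control animal 1, 2 or 3 it was 1, 25 and 1. When values were rescaled to a common sum 1 gene passed, and with the 6 compared libraries alone 0 passed, with 1744 at an unadjusted p under 0.05. All 24 named genes kept their direction under each of the 21 alternatives in which they were tested. Leaving out 1 library could not have turned it, because the groups of these genes do not overlap. Controls and 48 h animals do not enter the difference of the group means. The IMD-like gene BSL78_12555 passed without any 1 of the 12 libraries. It had 0 FPKM in every library outside 26 °C at 6 h, so leaving out any of those removed only a 0 from its fit. Among the higher genes, 30 °C animal 3 had the lowest of the 30 °C values in 25 of 37, and 26 °C animal 3 the highest of the 26 °C values in 20 of 37.

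**Figure D1:**
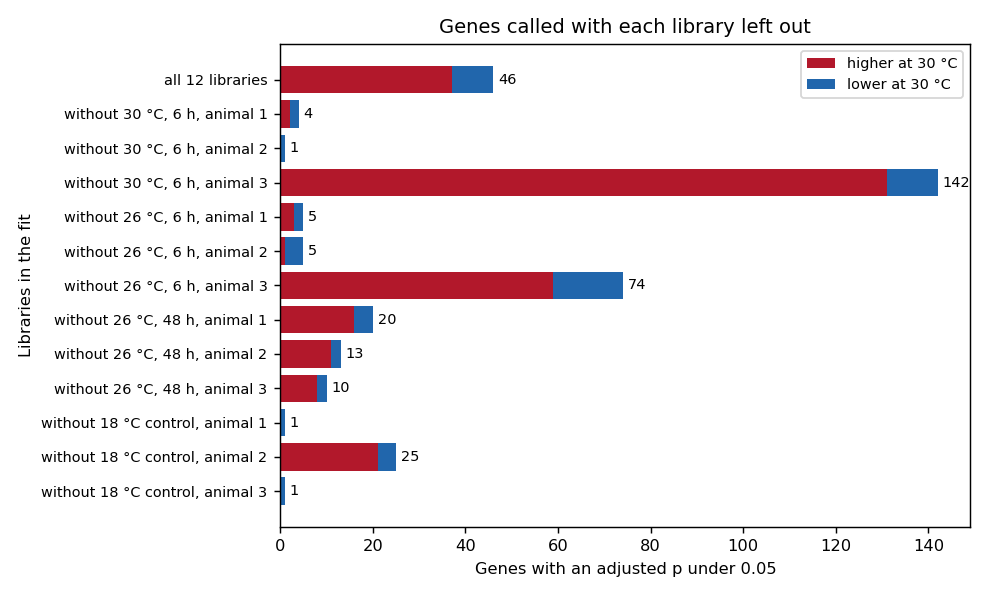
Number of genes with an adjusted p under 0.05 (horizontal axis) in the fit of all 12 libraries and with each library left out (vertical axis), split into genes higher and lower at 30 °C. The count is 46 with all libraries, 142 without 30 °C animal 3 and 1 without 30 °C animal 2 or control animal 1 or 3.

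Small heat shock protein HSP26 gave the largest amounts of RNA among the genes that rose. BSL78_08844 (scaffold MRZV01000256.1, 441916 to 442593) stood at 79256, 84218 and 31314 FPKM in 30 °C animals 1 to 3, against 67.8, 359 and 4201 FPKM in 26 °C animals 1 to 3. It rose (log2 change 6.98, SE 1.17, adjusted p = 0.0351), and the lowest 30 °C animal was above the highest 26 °C animal. BSL78_13663 (scaffold MRZV01000464.1, 243745 to 244446) stood at 54234, 165554 and 48087 FPKM at 30 °C, against 169, 1047 and 2663 FPKM at 26 °C, and it rose too (log2 change 6.60, SE 1.23, adjusted p = 0.04899). It lies between HSP26 models BSL78_13662 and BSL78_13664 on 1 scaffold, 1208 and 3010 bases away. BSL78_13662 had 100029, 223080 and 77590.4 FPKM at 30 °C, against 868, 2382 and 9268 FPKM at 26 °C, with a log2 change 5.49, SE 1.09, adjusted p = 0.0644. BSL78_13664 had 35215, 54719.8 and 7730.01 FPKM at 30 °C, against 106, 249 and 1513 FPKM at 26 °C, with a log2 change 6.16, SE 1.33, adjusted p = 0.0783. Both were apart between the groups without passing the threshold. The remaining HSP26 model, BSL78_21248, overlapped between the groups at 1993, 3692 and 639 FPKM at 30 °C, against 681, 1069 and 2338 FPKM at 26 °C (log2 change 0.49, SE 0.70, adjusted p = 0.826). Together the 5 models took 11.9, 19.1 and 5.01% of the reads on genes at 30 °C, against 0.118, 0.392 and 1.44% at 26 °C. How reads are split among such similar copies is uncertain.

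HSP70, the main inducible refolding chaperone, rose in 1 of its 8 models, beside 0.198% of all genes. In 5 of the 8 the groups did not overlap and 30 °C was higher, beside 7.01% of all genes. BSL78_02917 (scaffold MRZV01000064.1, 840013 to 843645) stood at 24515, 36136 and 32824 FPKM at 30 °C, against 67.9, 264 and 2015 FPKM at 26 °C, and it rose (log2 change 6.53, SE 1.15, adjusted p = 0.0413). Its 3 animals at 30 °C lay close together, while the 26 °C animals spread widely and animal 3 was the highest of them. A pair elsewhere on the same scaffold, BSL78_02892 and BSL78_02893, which start at 270577 and 271116, had log2 changes of 5.08 and 5.34 (adjusted p = 0.141 and 0.174). The pair BSL78_15518 and BSL78_15519 gave 4.42 (adjusted p = 0.102) and 3.09 (adjusted p = 0.153). BSL78_15519 had 32550.3, 25751 and 14372 FPKM at 30 °C, against 1518, 1673 and 7735 FPKM at 26 °C, which is a smaller step than that of BSL78_02917; the difference between the steps was not tested. The other 3 models, BSL78_19536, BSL78_19537 and BSL78_14632, overlapped between the groups, with log2 changes of 2.35, 1.47 and 1.64. All 8 models took 9.77, 11.7 and 4.84% of reads at 30 °C, against 0.317, 0.625 and 2.86% at 26 °C.

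BAG3, a co-chaperone that couples HSP70 to small heat shock proteins and to autophagy, rose at 30 °C. BSL78_05946 (scaffold MRZV01000152.1, 334739 to 344651) had 1625, 3058 and 1484 FPKM at 30 °C, against 6.69, 10.2 and 188 FPKM at 26 °C (log2 change 6.27, SE 1.02, adjusted p = 0.0316), and every 30 °C animal was above every 26 °C animal. Nearby, mucin-2-like BSL78_05945 and gem-associated protein 7 BSL78_05947 gave log2 changes of 0.66 and -1.06 (adjusted p = 0.885 and 0.683). DnaJ subfamily B member 1-like BSL78_01137, which brings substrates to HSP70, had 8081, 15532 and 3513 FPKM at 30 °C, against 61.8, 124 and 1141 FPKM at 26 °C (log2 change 5.20, SE 1.02, adjusted p = 0.0628). The adjacent DnaJ protein-like 1 BSL78_01136 had 2465, 5249 and 899.8 FPKM at 30 °C, against 14.2, 44.6 and 394 FPKM at 26 °C (log2 change 5.13, SE 1.16, adjusted p = 0.0888). Both were apart between the groups but did not pass the threshold. An alpha-crystallin B-like small heat shock protein, BSL78_12794, had 1973, 1675 and 693 FPKM at 30 °C, against 305, 304 and 241 FPKM at 26 °C (log2 change 2.22, SE 0.59, adjusted p = 0.147).

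Heat shock cognate 70, HSP90, HSP90 helpers and BAG1 did not show a change between 30 and 26 °C that passed the test. Heat shock cognate 70, the constitutive relative of HSP70, has 14 models, of which 11 were tested, and 0 passed in either direction. Its most abundant model BSL78_08507 had 861, 1132 and 321 FPKM at 30 °C, against 822, 985 and 1002 FPKM at 26 °C (log2 change -0.46, SE 0.57, adjusted p = 0.788). Log2 changes of the 11 ran from -1.65 to 3.46, and only BSL78_03200 did not overlap, at 21.4, 4.26 and 20.6 FPKM at 30 °C, against 0, 0 and 0.886 FPKM at 26 °C (log2 change 3.46, SE 1.20, adjusted p = 0.273). Against the 18 °C controls, BSL78_08507 had log2 changes of 2.32 at 26 °C and 1.87 at 30 °C (limma, adjusted p = 0.213 and 0.229). Both heat groups of BSL78_08507 were above all controls. Main HSP90 model BSL78_26676 had 8425, 30526 and 1454 FPKM at 30 °C, against 3763, 3876 and 4970.1 FPKM at 26 °C (log2 change 0.79, SE 0.89, adjusted p = 0.765), with 30 °C animal 3 below all the 26 °C animals. The less abundant HSP90 model BSL78_27325 had 32.3, 397 and 26.7 FPKM at 30 °C, against 6.699, 4.38 and 17.3 FPKM at 26 °C (log2 change 2.97, SE 0.94, adjusted p = 0.227). It was apart upward without passing the threshold. Of the HSP90 helpers, the stress-induced phosphoprotein Hop BSL78_07970 gave a log2 change of 1.37 (adjusted p = 0.577) and the ATPase activator Aha1 BSL78_20250 one of 0.61 (adjusted p = 0.8103), and both overlapped between the groups. BAG1 BSL78_20862 had 2.41, 0 and 0 FPKM at 30 °C, against 5.35, 2.22 and 3.298 FPKM at 26 °C (log2 change -1.56, SE 0.69, adjusted p = 0.3996).

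**Figure D2:**
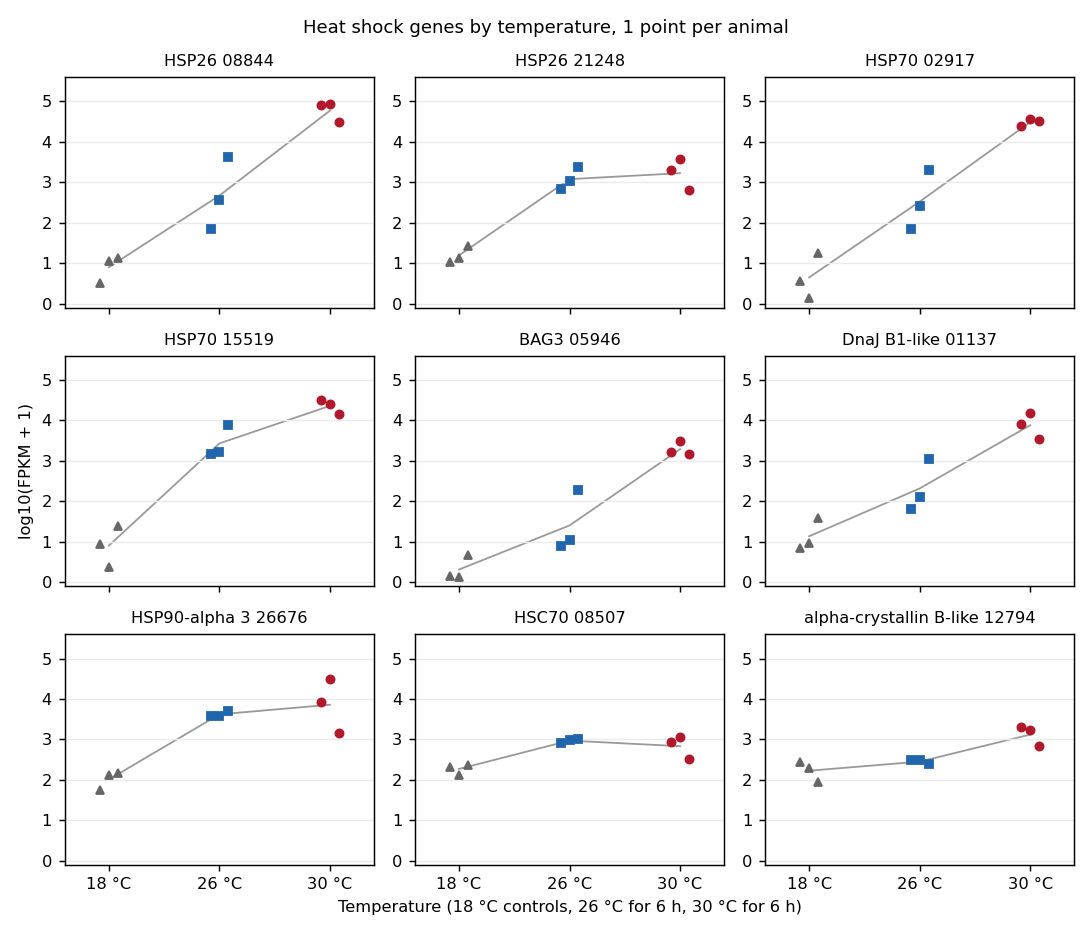
FPKM + 1 on a log10 axis for 9 heat shock genes at 18 °C, 26 °C and 30 °C, 1 point per animal, with a line through the group means. HSP70 BSL78_15519, HSP26 BSL78_21248 and HSP90 BSL78_26676 climb mostly between 18 and 26 °C, though for BSL78_15519 all 30 °C animals are above the 26 °C animals. HSP26 BSL78_08844 and BAG3 BSL78_05946 show a larger step from 26 to 30 °C than BSL78_15519 does, a difference that was not tested.

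All 47 cytosolic heat shock models took 23.9, 35.8 and 10.2% of reads on genes in 30 °C animals 1 to 3, against 1.39, 2.32 and 6.34% in 26 °C animals 1 to 3. The 95% Wilson intervals, which cover counting error only, were 23.8 to 23.9, 35.8 to 35.9 and 10.2 to 10.3% at 30 °C. At 26 °C they were 1.38 to 1.41, 2.30 to 2.34 and 6.31 to 6.36%. Groups did not overlap, with means of 23.3% ± 12.8 and 3.35% ± 2.63 (SD, n = 3 each) and a difference of 19.95 percentage points. The exact permutation test gave p = 0.1, two-sided, the smallest that 3 animals against 3 allow. Without 30 °C animal 2 the difference was 13.7 points, and without 30 °C animal 3 it was 26.5. Controls stood at 0.132% ± 0.0987 and 48 h animals at 0.539% ± 0.241. Of the 43 tested models 4 rose and 0 fell, beside 0.198% and 0.0481% of all genes. At an unadjusted p under 0.05, 16 were higher (37.2%, beside 6.7% of all genes) and 1 lower, and 15 were apart upward (34.9%, beside 7.01%) against 0 downward. The median log2 change was 0.94, or 0.84 above that of all genes after rescaling to a common sum.

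**Figure D3:**
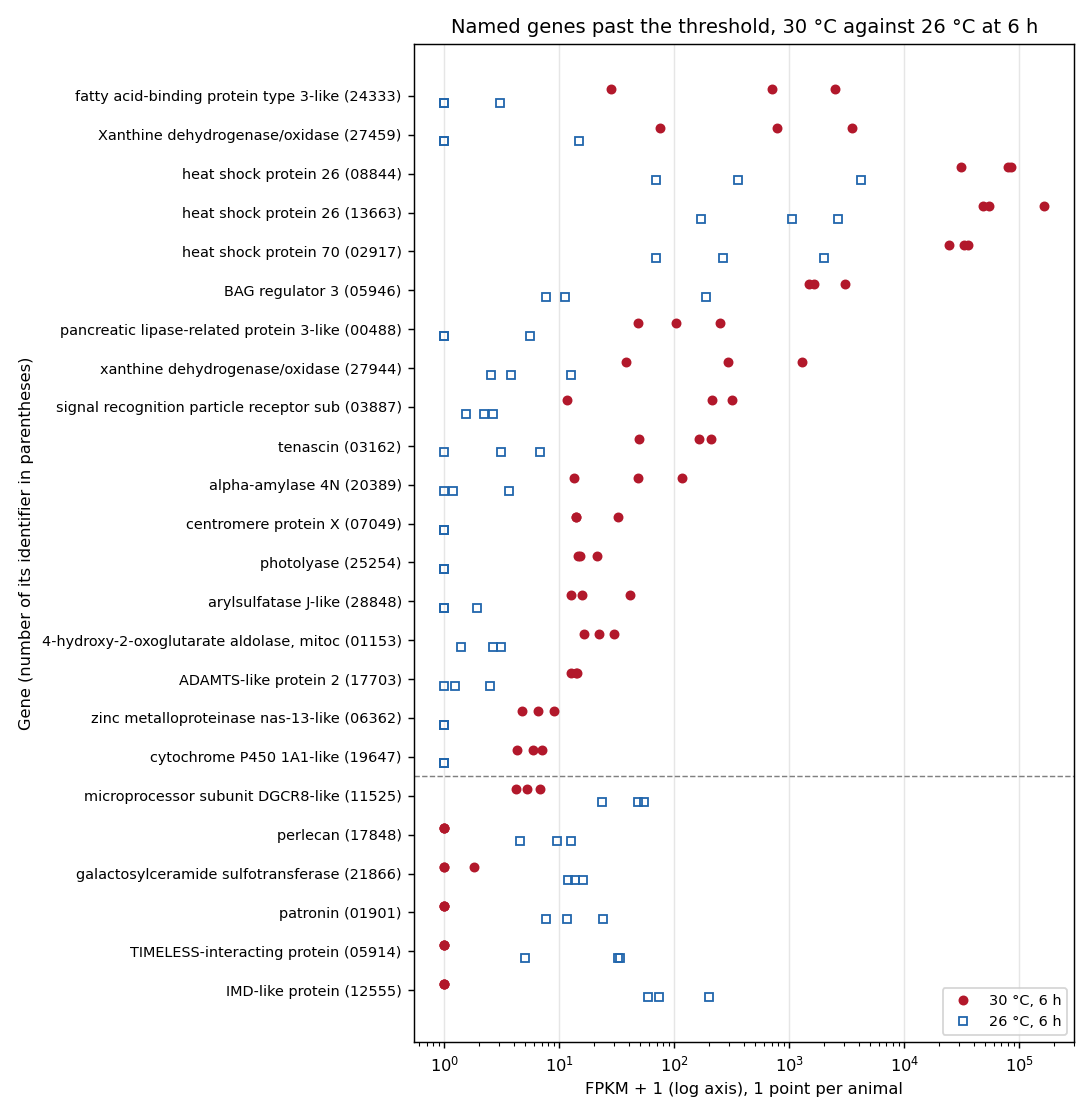
FPKM + 1 (log axis) of the 24 named genes past the threshold, ordered by log2 change, with 30 °C animals as filled circles and 26 °C animals as open squares. In each of the 24 the groups do not overlap, and below the dashed line stand the 6 genes that were lower at 30 °C.

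The largest log2 changes were those of a lipid carrier and a xanthine dehydrogenase, which were almost silent at 26 °C. BSL78_24333, a type 3-like fatty acid-binding protein that carries fatty acids inside cells (scaffold MRZV01001309.1, 193700 to 194080), had 2493, 700.4 and 27.05 FPKM at 30 °C, against 0, 0 and 2.02 FPKM at 26 °C (log2 change 7.98, SE 1.46, adjusted p = 0.0433). Its 26 °C value rests on 3 reads in all against 2286 at 30 °C, a ratio of 1178 with a counting interval of 402 to 5715. The 30 °C animals themselves spread over more than an order of magnitude, with animal 1 highest and animal 3 lowest. Among the 8 models of the family 1 rose; neighbour BSL78_24332 had 540.3, 14.5 and 1.803 FPKM at 30 °C, against 0, 0 and 0 FPKM at 26 °C (log2 change 4.84, SE 1.73, adjusted p = 0.285), and BSL78_13793, described as fatty acid-binding protein 2 of liver type, overlapped at 23.7, 276 and 3719 FPKM at 30 °C, against 33.2, 2351 and 0 FPKM at 26 °C. In bulk tissue, fewer cells of a type and less RNA per cell cannot be told apart, for these genes and those below.

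Xanthine dehydrogenase, which makes uric acid from purines and can yield reactive oxygen as an oxidase, rose in 2 of 11 tested models. BSL78_27459 (scaffold MRZV01001829.1, 91429 to 91596) has a coding length of only 168 bases and had 3489, 780.5 and 73.6 FPKM at 30 °C, against 0, 0 and 13.7 FPKM at 26 °C (log2 change 7.91, SE 1.27, adjusted p = 0.0316). BSL78_27944 (scaffold MRZV01001952.1, 74644 to 77950) had 1295, 290.3 and 37.002 FPKM at 30 °C, against 1.56, 2.82 and 11.6 FPKM at 26 °C (log2 change 5.61, SE 1.04, adjusted p = 0.0478). In both, animal 1 was highest and animal 3 lowest at 30 °C, as for the fatty acid-binding protein. A hypothetical model, BSL78_27460, starts 853 bases from BSL78_27459 and rose as well, at 583, 143 and 26.6 FPKM at 30 °C, against 0, 2.69 and 3.55 FPKM at 26 °C (log2 change 5.69, SE 0.91, adjusted p = 0.0316), and whether these models are separate genes was not tested. Of the other 9 tested models, 0 passed in either direction, and the most abundant, BSL78_02725, had 23.5, 21.1 and 21.7 FPKM at 30 °C, against 39.9, 23.97 and 11.04 FPKM at 26 °C.

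Among digestive enzymes, a lipase-related protein and an amylase rose at 30 °C. Pancreatic lipase-related protein 3-like BSL78_00488, a fat-digesting enzyme, had 47.001, 250.2 and 101 FPKM at 30 °C, against 0, 4.59 and 0 FPKM at 26 °C (log2 change 5.92, SE 1.08, adjusted p = 0.0433). Alpha-amylase 4N BSL78_20389, which cuts starch, had 47.2, 116 and 12.3 FPKM at 30 °C, against 0, 0.182 and 2.65 FPKM at 26 °C (log2 change 4.69, SE 0.79, adjusted p = 0.0351). Both rose, and in both the highest 26 °C animal was below the lowest 30 °C animal. Of 103 tested genes of this list 2 rose and 0 fell, and at an unadjusted p under 0.05 28 were higher and 6 lower, or 27.2% and 5.83%, beside 6.7% and 4.99% of all genes. Further members higher at an unadjusted p under 0.05 included carboxypeptidase A2-like BSL78_00588, a pancreatic-type peptidase, at 87.95, 327 and 13.6 FPKM at 30 °C, against 0, 0 and 4.11 FPKM at 26 °C (log2 change 5.45, SE 1.23, adjusted p = 0.08901). Trypsin-like BSL78_00549 had 3201, 4748 and 235 FPKM at 30 °C, against 8.16, 35.5 and 245 FPKM at 26 °C (log2 change 5.14, SE 1.96, adjusted p = 0.323), so 26 °C animal 3 was slightly above 30 °C animal 3. In the other direction, endochitinase A BSL78_24477 had 10.7, 3.802 and 4.47 FPKM at 30 °C, against 33.4, 45.1 and 36.1 FPKM at 26 °C (log2 change -2.53, SE 0.56, adjusted p = 0.08801). The list's median was 0.51, or 0.45 with genes at 0 in a group set at their bound; with a common sum it was 0.48 above all genes. As a share of reads these genes took 0.507, 0.531 and 0.1396% at 30 °C, against 0.166, 0.388 and 0.823% at 26 °C, and these shares overlapped.

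Genes of the extracellular matrix included 3 that rose and 1 that fell. Tenascin BSL78_03162 (scaffold MRZV01000071.1, 15896 to 18174), a matrix glycoprotein of tissue remodelling, had 162, 47.9 and 208 FPKM at 30 °C, against 5.84, 0 and 2.099 FPKM at 26 °C (log2 change 5.42, SE 0.85, adjusted p = 0.0316). ADAMTS-like protein 2 BSL78_17703, a matrix protein that in mammals binds fibrillin microfibrils, had 11.5, 13.1 and 12.8 FPKM at 30 °C, against 1.495, 0 and 0.239 FPKM at 26 °C (log2 change 3.21, SE 0.51, adjusted p = 0.0316). Astacin-type zinc metalloproteinase nas-13-like BSL78_06362 had 7.92, 5.51 and 3.73 FPKM at 30 °C and 0 reads in the 26 °C animals, at least 4.47-fold higher (adjusted p = 0.0492). All of these rose. Perlecan BSL78_17848, a proteoglycan of the basement membrane, fell: it had 0 reads in the 30 °C animals, against 11.7, 8.52 and 3.58 FPKM at 26 °C, at least 2.33-fold lower (adjusted p = 0.0419). It is 1 of 7 perlecan models, and the other 6 did not pass. Tenascin BSL78_03162 is 1 of 54 tenascin models, of which 21 were tested and 1 rose, with log2 changes from -1.78 to 5.42. The summed FPKM of the 54 overlapped, at 1091, 771 and 2909 at 30 °C, against 1105, 607 and 203 at 26 °C.

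Over the 174 tested matrix genes 3 rose and 1 fell. At an unadjusted p under 0.05, 35 were higher (20.1%, beside 6.7% of all genes) and 3 lower (1.72%, beside 4.99%). Apart upward were 37 (21.3%, beside 7.01% of all genes). Short-chain collagen C4-like BSL78_05260 had 82.1, 121 and 5.59 FPKM at 30 °C, against 0, 0 and 0.297 FPKM at 26 °C (log2 change 5.22, SE 0.99, adjusted p = 0.0537), and collagen alpha-3(VI) BSL78_03902 had 23.8, 16.3 and 14.6 FPKM at 30 °C, against 0, 1.37 and 0 FPKM at 26 °C (log2 change 3.82, SE 0.78, adjusted p = 0.0644). Matrix metalloproteinase 16, which cleaves matrix proteins at the cell surface, was apart in models BSL78_00511 and BSL78_12648, with log2 changes of 2.63 and 3.14 (adjusted p = 0.134 and 0.188). Metalloproteinase inhibitor 3 BSL78_09504, a brake on such enzymes, had 0, 0 and 0 FPKM at 30 °C, against 1.85, 8.71 and 1.33 FPKM at 26 °C (log2 change -2.00, SE 0.67, adjusted p = 0.251). The median log2 change of the list was 0.76, or 0.71 with genes at 0 at their bound and 0.70 above all genes with a common sum. Summed reads on the list were 0.585, 0.548 and 0.934% at 30 °C, against 0.626, 0.434 and 0.252% at 26 °C, and the shares overlapped.

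A further 6 named genes rose, and they have no single role. Signal recognition particle receptor subunit alpha BSL78_03887, which docks ribosomes at the endoplasmic reticulum, had 212, 315 and 10.7 FPKM at 30 °C, against 1.67, 1.21 and 0.534 FPKM at 26 °C (log2 change 5.47, SE 0.96, adjusted p = 0.0413). A model of the same name 867 bases away, BSL78_03886, overlapped between the groups. It had 253, 158 and 0.686 FPKM at 30 °C, against 0.534, 26.7 and 0.511 FPKM at 26 °C (log2 change 3.35, adjusted p = 0.430). Of 10 tested signal recognition particle models 1 rose. Centromere protein X BSL78_07049 had 31.6, 13.01 and 12.9 FPKM at 30 °C and 0 reads at 26 °C, at least 3.46-fold higher (adjusted p = 0.0285), and rests on 22 reads. Photolyase BSL78_25254, a light-driven DNA repair enzyme, had 14.02, 13.5 and 20.04 FPKM and 0 reads at 26 °C, at least 3.23-fold higher (adjusted p = 0.0351) on 20 reads. Of 4 photolyase models 3 were tested, with 1 above 0 and a median of -0.29. A deoxyribodipyrimidine photo-lyase model 300 bases away, BSL78_25253, overlapped between the groups. It had 5.42, 0 and 21.6 FPKM at 30 °C, against 0, 0.937 and 2.47 FPKM at 26 °C (log2 change 1.48, adjusted p = 0.602). Arylsulfatase J-like BSL78_28848 had 40.4, 11.6 and 14.8 FPKM at 30 °C, against 0, 0 and 0.921 FPKM at 26 °C (log2 change 4.02, SE 0.69, adjusted p = 0.0357), a ratio of 51.001 on 33 and 1 reads with a counting interval of 8.54 to 2075. Mitochondrial 4-hydroxy-2-oxoglutarate aldolase BSL78_01153, an enzyme of hydroxyproline breakdown, had 15.4, 21.1 and 28.6 FPKM at 30 °C, against 1.63, 0.394 and 2.08 FPKM at 26 °C (log2 change 3.30, SE 0.59, adjusted p = 0.0419). Cytochrome P450 1A1-like BSL78_19647, of a family that oxidises foreign compounds, had 4.92, 3.24 and 6.03 FPKM and 0 reads at 26 °C, at least 2.29-fold higher (adjusted p = 0.04899) on 14 reads. It is 1 of 9 cytochrome P450 1A1 models, of which 4 were tested, with log2 changes from -2.75 to 2.49 and 1 apart downward. The summed FPKM of the 9 overlapped, at 74.8, 83.4 and 16.8 at 30 °C, against 62.3, 81.97 and 16.8 at 26 °C.

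IMD-like gene BSL78_12555 (scaffold MRZV01000415.1, 60055 to 71869) had the smallest adjusted p of the genes tested and was lower at 30 °C. IMD is an adaptor of the insect pathway that senses bacteria, and the role of its sea cucumber relatives is not given in the file. No read fell on it in any 30 °C animal, whereas the 26 °C animals had 72.8, 199 and 58.1 FPKM, or 502 reads. It fell at least 36.9-fold (adjusted p = 0.000161) and passed in 20 of 21 alternatives, the exception being the fit of the 6 compared libraries alone (adjusted p = 0.268). Controls and 48 h animals had 0 FPKM in all 6 libraries, so the gene was seen in the 26 °C animals at 6 h alone among the 12 libraries. Alternatives that left out a library at 0 were therefore weak tests of this gene, and the groups at 0 lower its estimated spread. The other tested IMD-like models, BSL78_02287, BSL78_08667 and BSL78_07205, had log2 changes of -0.98, 0.36 and -0.76, none of which passed.

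Low values at 30 °C also marked 5 other named genes. TIMELESS-interacting protein, a replication fork factor, has 2 models, and both were apart. BSL78_05914 had 0 reads at 30 °C, against 4.004, 32.7 and 31.7 FPKM at 26 °C, and fell at least 7.12-fold (adjusted p = 0.0415), while BSL78_27883 had 0, 3.04 and 0 FPKM against 3.52, 68.5 and 22.5 FPKM (log2 change -3.61, adjusted p = 0.152). Patronin BSL78_01901, which caps microtubule minus ends, had 0 reads at 30 °C, against 23.1, 6.702 and 10.6 FPKM at 26 °C, and fell at least 4.56-fold (adjusted p = 0.0316). Microprocessor subunit DGCR8-like BSL78_11525, the partner of Drosha in microRNA processing, had 3.17, 4.24 and 5.82 FPKM at 30 °C, against 53.2, 47.7 and 22.2 FPKM at 26 °C (log2 change -2.90, SE 0.54, adjusted p = 0.04899). Galactosylceramide sulfotransferase BSL78_21866, which makes sulfated glycolipids, had 0.796, 0 and 0 FPKM at 30 °C, against 15.2, 12.7 and 10.9 FPKM at 26 °C (log2 change -3.50, SE 0.63, adjusted p = 0.0423). Perlecan BSL78_17848, given above, completes the group. The same name covers 35 sulfotransferase models, of which 21 were tested and 1 fell.

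Set against the 18 °C controls, most of the higher genes had 26 °C values that overlapped the controls, which does not mean equal levels. In 22 of the 37 the 26 °C animals overlapped the controls and the 30 °C animals were apart from them, and in 9 both heat groups were apart on the same side. In 4 genes the heat groups were on opposite sides of the controls, and in 2 only the 26 °C animals were apart. These genes were called for values lower at 26 °C than at 30 °C, so the counts describe these genes alone. The same counts over all genes were not taken. Tenascin BSL78_03162 had 33.97, 11.3 and 15.4 FPKM in controls, centromere protein X BSL78_07049 9.12, 9.08 and 12.3 FPKM and photolyase BSL78_25254 4.86, 2.303 and 1.09 FPKM, each above 26 °C and below 30 °C. For arylsulfatase J BSL78_28848 and the aldolase BSL78_01153, controls at 40.5, 6.96 and 10.9 and 15.005, 18.8 and 14.7 FPKM overlapped the 30 °C animals, so the 26 °C animals were the ones apart. Of the 9 lower genes, 6 had only the 26 °C animals apart from controls, among them IMD-like BSL78_12555, DGCR8-like BSL78_11525 with controls at 5.49, 13.1 and 12.4 FPKM and TIMELESS-interacting protein BSL78_05914 with controls at 2.18, 1.03 and 0 FPKM. Patronin BSL78_01901 was the 1 lower gene in which only the 30 °C animals were apart, with controls at 6.71, 4.77 and 5.67 FPKM. Sulfotransferase BSL78_21866 had 32.5, 44.7 and 19.9 FPKM in controls, above both heat groups. The comparisons with controls share the heat libraries with the main one: 30 of the 37 higher genes passed at 30 °C against control and 0 passed at 26 °C against control. In the called heat shock genes BSL78_08844, BSL78_13663, BSL78_02917 and BSL78_05946, the 26 °C animals were nonetheless above all controls. Their log2 changes at 26 °C against control were 5.89, 7.30, 6.23 and 3.62 (limma, adjusted p = 0.0875, 0.0536, 0.0666 and 0.330). The share of all genes passing against control was not counted.

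Hypothetical genes made up 19 of the 37 higher and 3 of the 9 lower genes. The largest, BSL78_10348 (scaffold MRZV01000314.1, 624899 to 626329), had 1087, 618 and 49.5 FPKM at 30 °C, against 0.374, 0.542 and 6.09 FPKM at 26 °C (log2 change 7.04, SE 1.09, adjusted p = 0.0315). BSL78_17561 (scaffold MRZV01000704.1, 106520 to 107200) had 388, 276 and 47.4 FPKM at 30 °C, against 0, 7.41 and 0.752 FPKM at 26 °C (log2 change 6.14, SE 0.86, adjusted p = 0.0236), and it lies 175 bases from another hypothetical gene that rose. Both were again highest in 30 °C animal 1 and lowest in animal 3. Among the lower ones, BSL78_09307 had 0.615, 0 and 0.753 FPKM at 30 °C, against 19.3, 19.6 and 27.2 FPKM at 26 °C (log2 change -4.01, SE 0.59, adjusted p = 0.0285) and BSL78_29774 had 0, 0 and 5.45 FPKM at 30 °C, against 41.01, 13.9 and 24.1 FPKM at 26 °C (log2 change -3.75, SE 0.70, adjusted p = 0.04899). The files give these models no function.

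Beyond the genes that passed, stress-linked lists held single members with large values. Fos-related antigen 1 BSL78_02081, an immediate early transcription factor, had 1486, 3733 and 371 FPKM at 30 °C, against 44.3, 17.5 and 152 FPKM at 26 °C (log2 change 4.66, SE 0.95, adjusted p = 0.0644). Heat shock factor Hsf1 BSL78_15811 itself was scarce, at 0.835, 1.03 and 1.53 FPKM at 30 °C, against 5.97, 4.04 and 2.096 FPKM at 26 °C (log2 change -1.18, SE 0.54, adjusted p = 0.427). Of 19 tested genes of this list 0 passed. At an unadjusted p under 0.05, 2 were higher (10.5%, beside 6.7% of all genes) and 1 lower (5.26%, beside 4.99%). Sequestosome-1 BSL78_15318, which delivers ubiquitinated proteins to autophagy, had 1344, 3041 and 1296 FPKM at 30 °C, against 83.2, 152 and 829 FPKM at 26 °C (log2 change 2.99, SE 0.74, adjusted p = 0.1205), and polyubiquitin-B BSL78_17582 had 389, 1266 and 166 FPKM at 30 °C, against 65.9, 93.5 and 65.4 FPKM at 26 °C (log2 change 2.54, SE 0.80, adjusted p = 0.226). Among 61 tested proteasome and ubiquitin genes 0 passed, and the median was 0.02. Superoxide dismutase BSL78_27182, which removes superoxide, had 92.9, 348 and 266 FPKM at 30 °C, against 40.8, 0 and 2.23 FPKM at 26 °C (log2 change 5.33, SE 1.09, adjusted p = 0.0644). Of the 60 tested antioxidant genes 0 passed, 10 were higher at an unadjusted p under 0.05 (16.7%, beside 6.7% of all genes) and 0 lower, and the median of 0.64 was 0.40 above all genes with a common sum.

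No gene of folding in the endoplasmic reticulum or of chromatin passed the test. In the endoplasmic reticulum list, 15 of 28 tested genes were above 0 and 13 below. At an unadjusted p under 0.05, 6 were lower (21.4%, beside 4.99% of all genes) and 1 was higher (3.57%, beside 6.7%). Calreticulin-like BSL78_13982, a calcium-binding chaperone of secreted proteins, had 244, 238 and 144 FPKM at 30 °C, against 819, 955 and 361 FPKM at 26 °C (log2 change -1.69, SE 0.62, adjusted p = 0.298), and calreticulin-like BSL78_00928 had 10.02, 2.75 and 4.09 FPKM at 30 °C, against 19.1, 26.9 and 24.4 FPKM at 26 °C (log2 change -2.03, SE 0.62, adjusted p = 0.21000). The median of that list was 0.25, and 0.00 with genes at 0 set at their bound. Of 69 tested histone and chromatin genes 0 passed, 9 were lower (13.04%, beside 4.99% of all genes) and 2 higher at an unadjusted p under 0.05, and 16 were apart downward (23.2%, beside 5.88% of all genes). Jumonji histone demethylase BSL78_14318 had 0.257, 2.12 and 1.26 FPKM at 30 °C, against 6.62, 9.79 and 18.2 FPKM at 26 °C (log2 change -2.49, SE 0.55, adjusted p = 0.08801), and histone deacetylase 3 BSL78_28545 had 1.31, 0.717 and 3.74 FPKM at 30 °C, against 17.9, 18.99 and 7.36 FPKM at 26 °C (log2 change -2.46, SE 0.63, adjusted p = 0.134). Chromatin genes had a median of -0.23, and stayed below all genes with a common sum, by -0.32. In the cytosolic chaperonin CCT, T-complex subunit beta BSL78_27385 had 20.1, 95.7 and 11.98 FPKM at 30 °C, against 83.4, 147 and 151 FPKM at 26 °C (log2 change -2.05, SE 0.88, adjusted p = 0.379), and 0 of 18 genes passed.

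Abundant genes as a class had higher FPKM at 30 °C under the deposited scaling. Median log2 changes were -0.01 for 11391 genes of 0.5 to 5 FPKM, 0.01 for 6170 genes of 5 to 50, 0.54 for 937 genes of 50 to 500 and 0.86 for 231 genes from 500 FPKM, 87.4% of which were above 0. Relative to all genes under a common sum, the same classes gave 0.12, -0.33, 0.02 and 0.32. The median of the most abundant class itself was -0.17 there, beside -0.50 for all genes. With quantile scaling the classes gave -0.03, -0.06, 0.00 and -0.18, beside -0.04 for all genes. For the most abundant class the sign thus turned under both, though under a common sum the class stayed above all genes. Cytosolic ribosomal proteins had a median of 0.86 with 79 of 88 above 0 and 0 passing. With a common sum their median was -0.18, which is 0.32 above all genes, and with quantile scaling it was -0.17. Their share of reads was 27.2, 12.5 and 27.7% at 30 °C, against 25.9, 23.2 and 16.4% at 26 °C, and overlapped. Oxidative phosphorylation genes, which make ATP in mitochondria, had a median of 0.81, with 0 of 39 passing. With a common sum that median was -0.18, which is 0.32 above all genes, and with quantile scaling it was 0.01. In glycolysis 0 of 20 passed, and triosephosphate isomerase BSL78_08038 had 80.03, 34.5 and 171 FPKM at 30 °C, against 5.702, 3.62 and 17.8 FPKM at 26 °C (log2 change 3.25, SE 0.70, adjusted p = 0.0785). Of the 148 tested lipid metabolism genes 1 rose, 0 fell, and 12 were higher (8.11%, beside 6.7% of all genes) against 1 lower at an unadjusted p under 0.05. Of 166 innate immunity genes 0 rose and 1 fell, with 16 higher (9.64%) and 11 lower (6.63%, beside 4.99% of all genes) at an unadjusted p under 0.05.

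**Figure D4:**
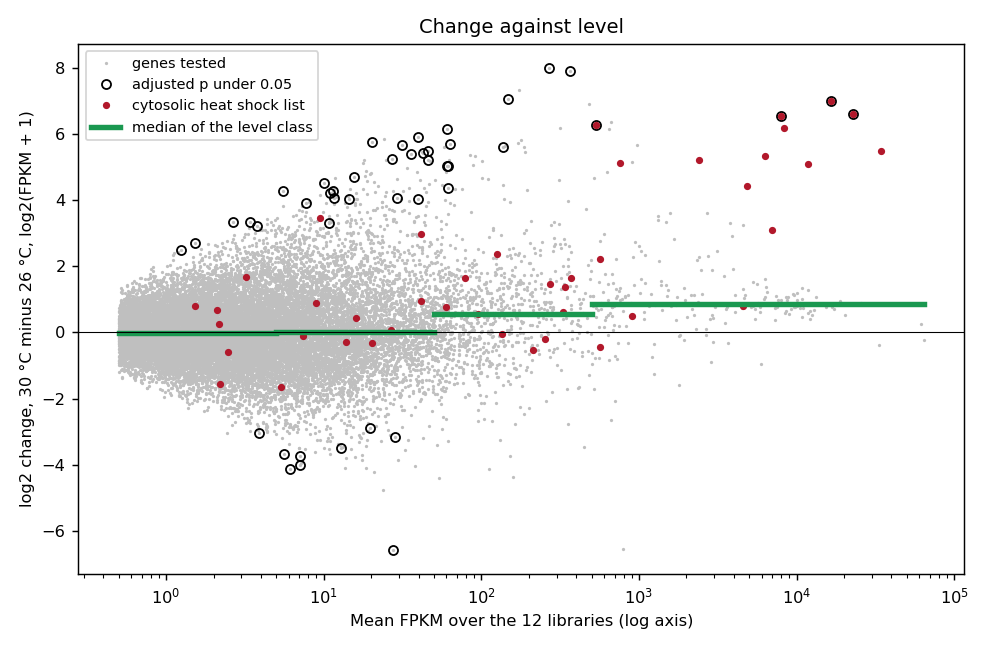
Log2 change at 30 °C minus 26 °C (vertical axis) against mean FPKM over the 12 libraries (log axis) for the 18729 genes tested. Genes past the threshold are ringed, cytosolic heat shock genes are red, and green bars give the median of each level class, 0.86 from 500 FPKM.

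The remaining lists held few or no genes that passed. Of 105 tested genes that act on foreign compounds and purines 3 rose and 0 fell, namely both xanthine dehydrogenases and cytochrome P450 1A1-like BSL78_19647, and of 91 cell cycle genes 1 rose, centromere protein X BSL78_07049. In 7 lists 0 genes passed in either direction, and their counts at an unadjusted p under 0.05 are given beside 6.7% higher and 4.99% lower of all genes. These were 0 higher and 0 lower of 31 mitochondrial chaperones, 6 (10%) and 4 of 60 autophagy and lysosome genes, 3 and 3 of 70 apoptosis genes, and 3 and 2 of 94 translation factors. The rest were 10 (9.01%) and 3 of 111 splicing genes, 16 and 8 of 306 solute carriers, and 3 and 5 of 84 mobile element models. Apart upward were 8 autophagy and lysosome genes (13.3%) and 14 splicing genes (12.6%), beside 7.01% of all genes. Heterogeneous nuclear ribonucleoprotein A1-like BSL78_26499, which binds pre-mRNA, had 539, 196 and 415 FPKM at 30 °C, against 43.1, 65.1 and 115 FPKM at 26 °C (log2 change 2.34, SE 0.58, adjusted p = 0.119). Retrovirus-related Pol BSL78_18574, a transposon model listed at 0 FPKM in all 3 controls, had 219, 133 and 7.33 FPKM at 30 °C, against 4.39, 2.55 and 1.89 FPKM at 26 °C (log2 change 4.04, SE 0.92, adjusted p = 0.0907). Of 13 tested major yolk protein and ferritin models, iron-binding proteins, 0 passed and 0 were past an unadjusted p of 0.05; they took 10.7, 20.6 and 25.3% of reads at 30 °C, against 32.7, 22.9 and 30.3% at 26 °C.

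Markers of the tissue and of other cells were read beside these results, and their part in them was not tested. Of the 56 models of gut epithelium markers 3 had no read in the 6 libraries, and each of the 9 marker names was detected. Villin, the actin bundler of absorptive cells, summed to 262, 323 and 74.6 FPKM at 30 °C, against 377, 272 and 443 FPKM at 26 °C. Trypsin models summed to 3208, 4759 and 293 FPKM at 30 °C, against 8.16, 51.99 and 349.5 FPKM at 26 °C. The whole list took 0.124 to 0.363% of reads at 30 °C and 0.0631 to 0.402% at 26 °C, and 2 of 45 tested genes rose and 0 fell, both described above. At an unadjusted p under 0.05, 16 were higher (35.6%, beside 6.7% of all genes) and 2 lower. Its median was 0.99, but 0.31 with genes at 0 at their bound.

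Contractile muscle genes took 0.205 to 0.549% of reads at 30 °C and 0.294 to 0.4099% at 26 °C. Of 51 tested, 0 passed and 8 were higher (15.7%, beside 6.7% of all genes) against 1 lower at an unadjusted p under 0.05; troponin I BSL78_08091 had 49.1, 50.2 and 17.5 FPKM at 30 °C, against 0.755, 7.67 and 4.34 FPKM at 26 °C (log2 change 3.06, SE 0.70, adjusted p = 0.0907), and the paramyosin model was at 0 in all 6 libraries. The median was 0.60, or 0.42 above all genes with a common sum. Neuronal genes took 0.0563 to 0.156% of reads at 30 °C and 0.0518 to 0.0723% at 26 °C, with 0 of 55 passing and 5 higher (9.09%) against 4 lower (7.27%) at an unadjusted p under 0.05. Coelomocyte genes, whose reads were mostly on major yolk proteins, took 8.87 to 20.5% at 30 °C and 17.1 to 30.1% at 26 °C. Of the 49 models, 42 have lectin in their name and 5 major yolk. Of 25 tested, 0 passed, and 6 were higher (24.0%, beside 6.7% of all genes) against 0 lower at an unadjusted p under 0.05. No major yolk protein was among the 6. Germ line genes took 0.00679 to 0.0546% at 30 °C and 0.00946 to 0.1499% at 26 °C, with 0 of 10 passing. The piwi models held 0 FPKM in 30 °C animals 1 and 3 and in 26 °C animals 1 and 2. Both vasa models had reads in all 6 libraries, with sums of 8.92, 3.43 and 14.3 FPKM at 30 °C, against 8.83, 8.16 and 9.48 FPKM at 26 °C. Vitellogenin models summed to 371, 472 and 50.4 FPKM at 30 °C, against 448, 706 and 25.5 FPKM at 26 °C. The synaptonemal model had reads in 26 °C animal 1 alone.

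**Figure D5:**
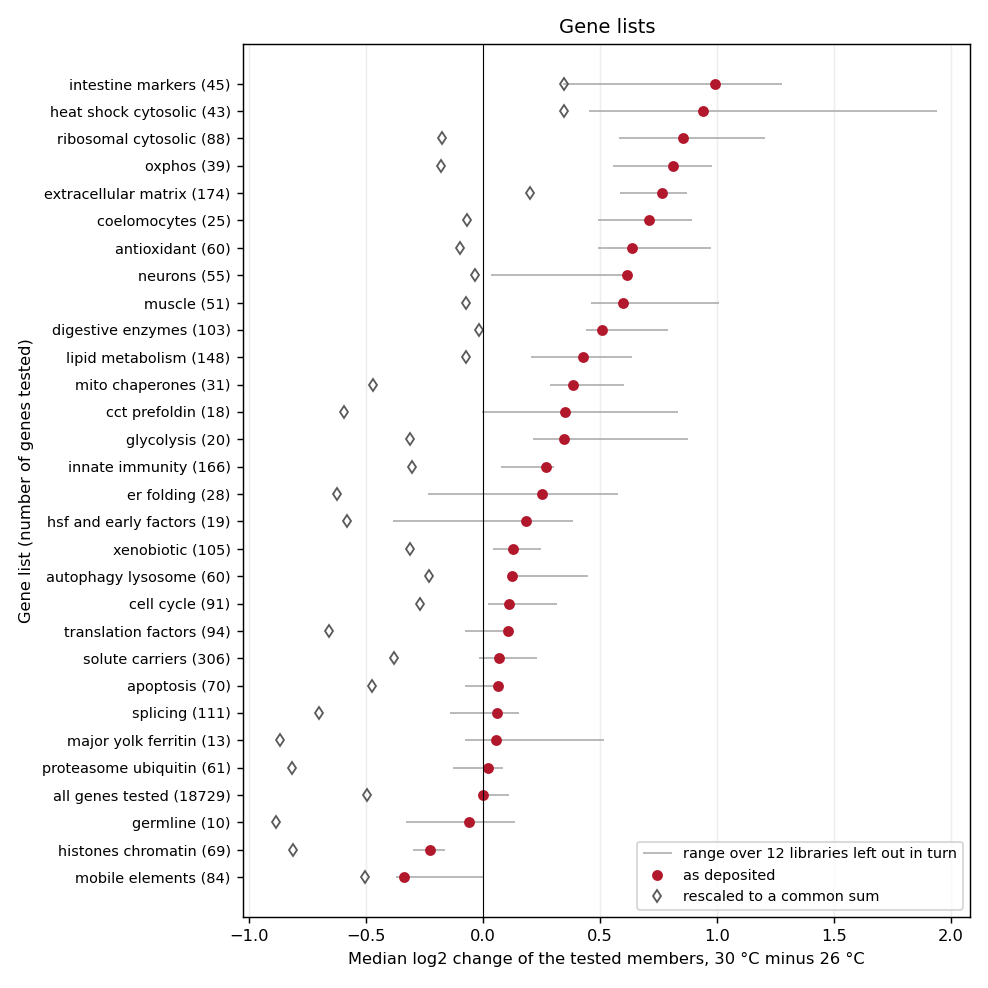
Median log2 change at 30 °C minus 26 °C of the tested members of 29 gene lists and of all genes, under the deposited scaling (filled circles) and after rescaling to a common sum (open diamonds), with grey lines for the range when each of 12 libraries is left out. Heat shock genes stand at 0.94 and 0.35, extracellular matrix at 0.76 and 0.20, and all genes at 0.00 and -0.50.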

How the data were processed

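The authors deposited a table of FPKM per gene model, per the file headers, for 30221 models with a description, scaffold, position and length, and 94.04% of lengths divide by 3, hence the term coding length. The aligner, counting tool and genome build are not given in the sources used here, and a reference gene table matched 0 identifiers. Whole reads were recovered for 100% of values from FPKM times coding length, within 0.05 of a read, and the step of each library followed median-of-ratios size factors with a constant of 2815402. Value columns of samples outside the study numbered 0.

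Genes averaging 0.5 FPKM or more were tested with limma 3.58.1 (R 4.3.3) on log2(FPKM + 1), with a mean per group over all 12 libraries and two-sided Benjamini-Hochberg p-values, so folds of low genes are understated. A bound written "at least" uses 3 reads in each of the 3 libraries. Genes whose values do not overlap are called apart. The 29 lists come from words in the descriptions; the comparison, lists and named genes were chosen with earlier results of these data known. Named genes were the named calls with groups apart, the called members of each list, and where none passed the 2 of smallest p; other named members were chosen after their values were seen. Strand of counting is not stated, so overlapping and antisense models cannot be told apart. Animal numbers of the groups did not pair (correlations of deviations 0.021, -0.060 and -0.180).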

Additional observations from a re-analysis of the deposited data

How the results depend on the processing

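Against 46 genes called, 33 passed with a pseudocount of 0.1, of which 12 were among the 46, 40 with a mean of at least 5 FPKM and 52 with array weights. The count was 23 with no filter, 29 with quantile scaling, 8 with voom on recovered reads, 1 with a common sum and 0 with the 6 compared libraries alone, where 1744 genes had an unadjusted p under 0.05 and the smallest adjusted p was 0.268. With the animal number as a replicate block 17 passed, 16 of them among the 46, though the numbers were not shown to pair the animals. With 1 library left out the count ran from 1 to 142; an arm left with 2 animals shares the spread of the other groups. The cause of these moves was not tested. The median of all genes was 0.17 with voom, 0.11 without 26 °C animal 3 and 0.10 with at least 5 FPKM.

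Over 66 named genes and 21 alternatives, the 24 called genes kept their direction wherever they were tested, with 144 results still past the threshold and 356 not, and 8 results of uncalled genes passed. With 1 library left out, the direction of the called genes was fixed in advance, because their groups do not overlap. The uncalled major yolk protein 1 gene BSL78_16917 had -0.0388 with a common sum, which is 0.46 above all genes there, and turned to -0.0475 with quantile scaling. The share of reads on heat shock genes differed by 19.8 points when taken of the FPKM sum and by 13.7 to 26.5 points with 1 library left out (exact permutation p = 0.2, the smallest possible there). For a coding length of a kilobase, 3 reads correspond to 0.768 to 2.06 FPKM in the 6 compared libraries, so changes below that level were not detectable.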
